A study of Mus musculus with 4 samples.

Results

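The genes described here are the conjugating enzymes of drug and hormone metabolism, with the flavin monooxygenases and the carboxylesterases, in fetal mouse liver. They were taken by symbol, as every gene of the families Ugt1 to Ugt3, Sult, Gst (cytosolic and kappa classes, without Gstz1), Fmo and Ces1 to Ces3 that had a probe set annotated to 1 symbol, and the probe set with the highest mean signal stood for the gene. This gave 57 genes of the 18193 on the array, namely 10 UDP-glucuronosyltransferases, 13 sulfotransferases, 19 glutathione S-transferases, 4 flavin monooxygenases and 11 carboxylesterases. Liver was collected on gestation day 17 from Sox17+/- fetuses and from wildtype fetuses, both of the C57BL/6 (B6) strain and both sired by Sox17+/- males on dams of 6 to 8 weeks. Sox17 encodes a transcription factor of endoderm, bile ducts and vessels, and the comparison asks which liver transcripts differ when 1 allele is altered. Each genotype had 2 biological replicates, each on 1 single-colour Affymetrix array. The liver had been separated from the biliary system. The kind of Sox17 allele, the sex of the fetuses and the number of fetuses behind each replicate were not given in the sources used here.

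These enzymes make fat-soluble compounds easier to excrete. UDP-glucuronosyltransferases attach glucuronic acid to bilirubin, steroids and drugs in the endoplasmic reticulum, sulfotransferases attach sulfate in the cytosol, and glutathione S-transferases attach glutathione to reactive compounds. Flavin monooxygenases oxidise nitrogen and sulfur atoms, and carboxylesterases cleave esters, among them drugs and stored lipids. Most of these genes are typical of hepatocytes and many reach their adult level only after birth, while some glutathione S-transferases are made in many cell types.

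The arrays as deposited were on a common scale, with a trimmed mean signal near 499.8 on each and medians of 92.6 and 87.1 on the Sox17+/- arrays against 84.7 and 103 on the wildtype arrays. Sox17 itself had signals of 139 and 124 in Sox17+/- liver against 244 and 264 in wildtype liver on its brighter probe set (log2 difference -0.87, SE 0.20, adjusted p = 0.9999 by limma), and its second probe set also gave -0.87. Wildtype array 1 stood apart in its ratio of 3' to 5' signal for Actb, which was 1.95 there, against 1.43 and 1.20 on the Sox17+/- arrays and 1.25 on wildtype array 2. The same ratio for Gapdh was level, at 0.853 there against 0.843 and 0.832 on the Sox17+/- arrays and 0.807 on wildtype array 2. The hepatocyte marker list, with 13 of 16 genes measured, had summed signals of 422683 and 251731 on the Sox17+/- arrays against 434039 and 265442 on the wildtype arrays, and 0 of its 13 genes had groups that did not overlap. These sums sorted by array number and not by genotype. The biliary list, with 8 of 10 genes measured and Krt7, Krt19, Cftr, Muc1 and Tff2 among the dimmer 50% of probe sets, summed to 786 and 516 against 538 and 578. Erythroid markers, with 7 of 11 measured, summed to 94832 and 78820.0 against 91201 and 81635. Both Sox17+/- arrays were lower for 4 of 8 macrophage, 1 of 8 endothelial and 2 of 8 stellate markers, and higher for 1, 4 and 3 of them, where 19.0% of all genes were lower and 13.9% higher. Summed signals were 21317 and 18826 against 21287 and 17624 for macrophages, 7945 and 7705 against 7696.5 and 5860.5 for endothelium, and 11758 and 11386 against 11792 and 10528 for stellate cells. Between genotypes the endothelial sums barely missed overlap, with Sox17+/- array 2 and wildtype array 1 nearly equal, and the other 2 overlapped. For pancreas and intestine they were 1949 and 1442 against 1726 and 1641, and for kidney and adrenal 566 and 520.3 against 479 and 598. In whole liver, fewer cells of a type and less RNA per cell cannot be told apart, and the part of these differences in the results was not tested.

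Most of the 57 genes had lower signals in Sox17+/- liver, by small to moderate amounts, and none passed the test. On 27 of 57 genes (47.4%) both Sox17+/- arrays lay below both wildtype arrays, where 19.0% of all genes did so. On 3 genes both Sox17+/- arrays lay above both wildtype arrays, where 13.9% of all genes did so, and on the other 27 the genotypes overlapped. The median difference, on the scale log2(signal + 16) and as Sox17+/- minus wildtype, was -0.39 over the 57 genes and -0.03 over all 18193 genes. The added 16 draws the differences of dim genes toward 0.

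No gene passed the moderated test of limma with Benjamini-Hochberg adjustment over the 22519 probe sets in the brighter 50%. That test called 0.0% of probe sets, and the adjusted p was 0.9999 for each of the 39 members tested. At an unadjusted p under 0.05, limma had 12 of the 39 tested members as lower, where 2.55% of tested genes and 2.3% of tested probe sets were, and 0 as higher, where 1.6% of genes and 1.77% of probe sets were. The smallest unadjusted p of a member was 0.00333, for Sult2a2. With 2 arrays a genotype an exact permutation test cannot give a two-sided p below 0.333. The unadjusted p-values below are from the limma fit and are given to order the genes, not as calls.

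**Figure D1:**
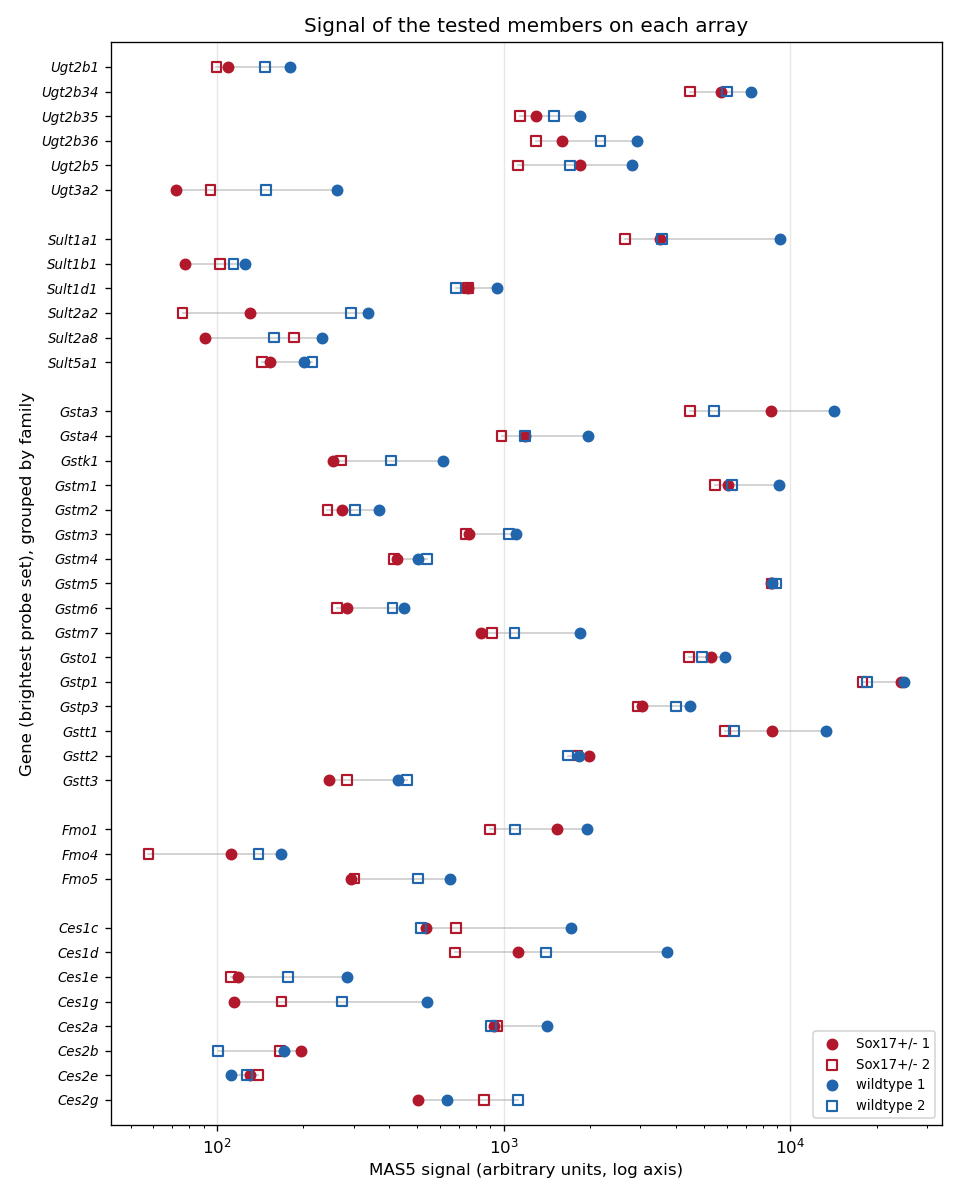
MAS5 signal (arbitrary units, log axis) of the 39 tested members on each array, grouped by family. Red marks the Sox17+/- arrays and blue the wildtype arrays, with filled circles for arrays numbered 1 and open squares for arrays numbered 2. Wildtype array 1 is the rightmost point in 31 of the 39 genes, where it was the highest array in 30.5% of tested genes.

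The 5 families leaned the same way. The median difference was -0.51 for the UDP-glucuronosyltransferases, -0.34 for the sulfotransferases, -0.39 for the glutathione S-transferases, -0.56 for the flavin monooxygenases and -0.27 for the carboxylesterases. Both Sox17+/- arrays lay below both wildtype arrays in 6 of 10 Ugt, 5 of 13 Sult, 11 of 19 Gst, 2 of 4 Fmo and 3 of 11 Ces genes. Over all genes 19.0% did so, and the Ces share, 27.3%, was the nearest to that. The distance between the lowest and the highest family median, 0.29, was close to the largest pooled SD between arrays: the SD of a family median between arrays of 1 genotype was 0.13 to 0.28. The order of the families was not tested, and genes of a family are not replicates of a genotype.

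The families were also alike array by array. Relative to each gene's mean over the 4 arrays, the Ugt median was -0.18 and -0.36 on the Sox17+/- arrays against 0.36 and 0.16 on the wildtype arrays. For Gst genes it was -0.12 and -0.27 against 0.31 and 0.04, and for Ces genes -0.15 and -0.12 against 0.31 and 0.00. In each of the 5 families both Sox17+/- medians were below both wildtype medians, and wildtype array 1 had the highest. Over all genes the medians were 0.005 and -0.03 against 0.007 and 0.03.

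**Figure D2:**
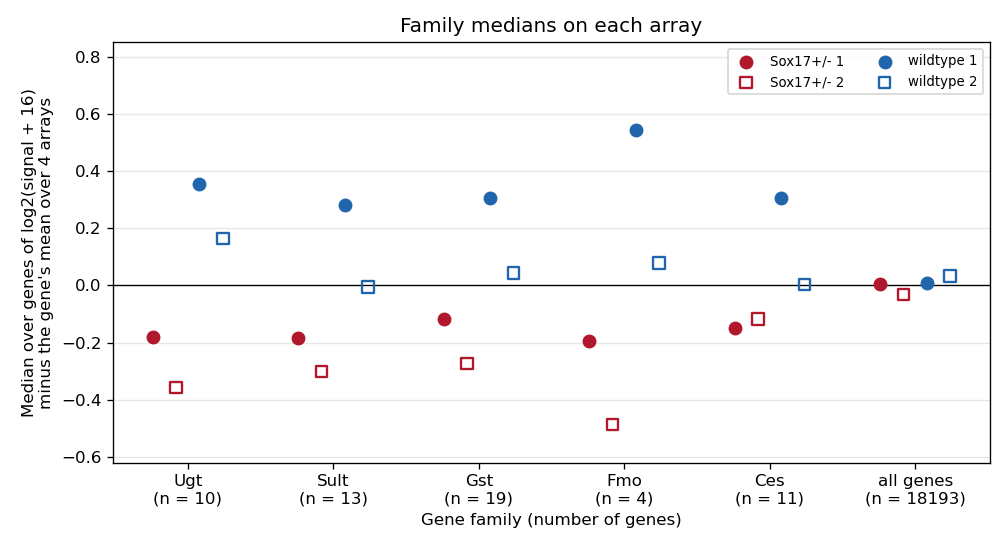
Median over the genes of a family of log2(signal + 16) minus the gene's own mean over 4 arrays (vertical axis), for each array and for all genes. In every family the 2 Sox17+/- arrays (red) lie below the 2 wildtype arrays (blue), with wildtype array 1 highest, from 0.28 in Sult to 0.55 in Fmo.

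The size of the difference moved with wildtype array 1. That array was the highest of the 4 arrays in 35 of 57 members (61.4%), against 27.7% of all genes. This was not particular to the members, since it was the highest in 61.5% of measured hepatocyte markers. In the pathway lists given below, the share ran from 35.7% of transporters to 80% of other hydrolases and oxidoreductases. It is the array with the high Actb ratio, though not a high Gapdh ratio, whose part in the result was not tested. Among tested members, 15 of 39 had over 1.5 times the signal on wildtype array 1 that they had on wildtype array 2, where 9.05% of tested genes did. Arrays with the same number share a code in their names, and the median difference over the 57 genes was -0.52 between the arrays numbered 1 and -0.39 between those numbered 2. Without wildtype array 1 the median difference of the 57 genes was -0.25, and by family it was -0.37 for Ugt, -0.25 for Sult, -0.24 for Gst, -0.29 for Fmo and 0.075 for Ces, against -0.05 for all genes. In that setting 33 of 57 members lay below the remaining wildtype array on both Sox17+/- arrays, where 37.5% of all genes did.

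Among the UDP-glucuronosyltransferases all 5 tested Ugt2b genes had lower means in Sox17+/- liver. Ugt2b36 had signals of 1599.5 and 1298 on the Sox17+/- arrays against 2911 and 2179 on the wildtype arrays. Its log2 difference was -0.80 (SE 0.25, 95% interval -1.44 to -0.16, unadjusted p = 0.0241 by limma), and the genotypes did not overlap. Ugt2b35 had 1297 and 1141 against 1851 and 1502, and Ugt2b34 had 5716 and 4459.9 against 7312 and 6017. These had log2 differences of -0.45 and -0.39, again without overlap. The second probe set of Ugt2b34 gave -0.43, and its difference was -0.25 without wildtype array 1 and -0.21 without Sox17+/- array 2.

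Ugt2b1, which glucuronidates steroids and phenols in rodents, had 109 and 99.7 in Sox17+/- liver against 179 and 147 in wildtype liver, a difference of -0.57 (unadjusted p = 0.0440 by limma). Ugt2b5 was the tested member of the family with overlap, at 1845 and 1126 against 2813 and 1709. Its difference was -0.60 within each same-numbered pair, and from -0.96 to -0.24 as each array was left out. Ugt3a2 had the largest difference of the family, -1.11 (95% interval -1.95 to -0.28, unadjusted p = 0.0184 by limma), with 71.7 and 95.1 against 262 and 148. The human UGT3A2 enzyme uses sugars other than glucuronic acid. The Sox17+/- arrays were both lower, wildtype array 1 was far above the other 3, and the difference was -0.73 without it.

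The sulfotransferases held the largest difference of all tested members. Sult2a2, of the class that sulfates steroids and bile acids, had signals of 130.0 and 75.9 in Sox17+/- liver against 338 and 294 in wildtype liver, or 103 ± 38.3 against 316 ± 30.7 (mean ± SD, n = 2 each). Its log2 difference was -1.52 (SE 0.29, 95% interval -2.26 to -0.77). The genotypes were well apart, the 2 wildtype arrays were close to each other, and the difference was -1.28 and -1.76 within the same-numbered pairs. Without wildtype array 1 it was -1.42.

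Sult1a1, the main phenol sulfotransferase of liver, had 3521 and 2656 in Sox17+/- liver against 9222 and 3559 in wildtype liver. Its difference of -0.90 had a 95% interval of -2.15 to 0.35. Wildtype array 1 was far above the other wildtype array, and Sox17+/- array 1 nearly met wildtype array 2. The difference was -0.22 without wildtype array 1 and -1.59 without wildtype array 2. Sult5a1 had 153 and 144 against 201 and 215 (log2 difference -0.45, 95% interval -0.95 to 0.06). Sult1b1, which sulfates thyroid hormones and phenols, had 77.7 and 103 against 125 and 114 (log2 difference -0.36, and -0.19 without Sox17+/- array 1). Both genes were lower on both Sox17+/- arrays, and in Sult5a1 wildtype array 2 was the higher of the wildtype arrays. Sult1d1, which sulfates catecholamines in mouse, overlapped, with 753 and 753 against 951 and 683, and its difference of -0.10 became 0.14 without wildtype array 1. Sult2a8, a bile acid sulfotransferase of mouse, also overlapped, with log2 differences of -1.21 and 0.21 in the same-numbered pairs.

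The glutathione S-transferases were the largest family, with 16 of 19 genes tested, and its members varied in the size of the difference. The mu class lay lower in 6 of 7 genes without overlap, where 18.7% of tested genes did, with a class median of -0.39. Gstm6 had 284 and 263 in Sox17+/- liver against 450.1 and 409.9 in wildtype liver (log2 difference -0.62, 95% interval -1.13 to -0.11, unadjusted p = 0.0261 by limma). Gstm3 had 759.9 and 738 against 1109 and 1046 (log2 difference -0.52, unadjusted p = 0.0455 by limma). In both genes the arrays of a genotype were close together and the genotypes apart. Gstm1, Gstm2 and Gstm4 had smaller differences, of -0.39, -0.35 and -0.30. The difference was below 0 on all 4 probe sets of Gstm1, but its dimmer ones overlapped, the dimmest with 234 and 344 against 312 and 374.

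Gstm5, of the same class and gene cluster, had 8553 and 8653 in Sox17+/- liver against 8627 and 8924 in wildtype liver. Its log2 difference was -0.03 (SE 0.19, 95% interval -0.52 to 0.47), and its sign turned, to 0.018, with each array centred on its median. Gstp1, a widely expressed glutathione S-transferase, likewise had 24265 and 17848 against 24958 and 18489.6. The difference was -0.05 (95% interval -0.75 to 0.66), 0.0010 with arrays centred, and 0.17 without wildtype array 1. For Gstp1 the arrays sorted by their number and not by genotype. Its neighbour Gstp3 had 3030.1 and 2951 against 4481 and 4005 (log2 difference -0.50, 95% interval -1.01 to 0.01), with no overlap.

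Among tested genes of the remaining classes, Gstk1, of mitochondria and peroxisomes, and Gstt3, of the theta class, had the largest differences. Gstk1 had 253 and 271 in Sox17+/- liver against 614 and 404 in wildtype liver (log2 difference -0.89, SE 0.27, unadjusted p = 0.0207 by limma). Gstt3 had 246 and 284 against 427 and 462 (log2 difference -0.72, SE 0.21, unadjusted p = 0.0173 by limma). Neither overlapped. Gstt1, which acts on small halogenated compounds, overlapped, with 8601 and 5909 against 13271 and 6372, and its difference of -0.37 became 0.16 without wildtype array 1. Gstt2 was the only tested glutathione S-transferase above 0, with overlap, at 1993 and 1809 against 1832 and 1681 (log2 difference 0.11, 95% interval -0.40 to 0.63). Gsta3 and Gsta4, of the alpha class that detoxifies lipid peroxidation products, had differences of -0.51 and -0.49 with overlap, and Gsto1 of the omega class had -0.15.

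The starts of these genes differed in their content of CpG dinucleotides, which many widely expressed genes carry in number and which most tissue-restricted genes lack. RefSeq promoters (GRCm38.p6) were listed for 48 of the 57 genes, and the 250 bases before the start were read. Shown are the promoters of 2 pairs from the same class, picked after their values were seen for unlike log2 differences (Gstp1 with Gstp3, and Gstm5 with Gstm3, whose intervals overlap within each pair), and of Ces1g and Ugt2b36 from other families, with each CG in capitals. Gstp1 lies at chr19:4037913-4038162, minus strand, Gstp3 at chr19:4059448-4059697, minus strand, Gstm5 at chr3:107895604-107895853, plus strand, Gstm3 at chr3:107969175-107969424, minus strand, Ces1g at chr8:93337210-93337459, minus strand, and Ugt2b36 at chr5:87092556-87092805, minus strand.
Gstp1: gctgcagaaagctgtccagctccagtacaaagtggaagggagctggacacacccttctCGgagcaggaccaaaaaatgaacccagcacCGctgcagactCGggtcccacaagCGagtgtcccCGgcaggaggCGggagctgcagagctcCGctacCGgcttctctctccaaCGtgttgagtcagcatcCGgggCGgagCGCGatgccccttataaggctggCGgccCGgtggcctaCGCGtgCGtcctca
Gstp3: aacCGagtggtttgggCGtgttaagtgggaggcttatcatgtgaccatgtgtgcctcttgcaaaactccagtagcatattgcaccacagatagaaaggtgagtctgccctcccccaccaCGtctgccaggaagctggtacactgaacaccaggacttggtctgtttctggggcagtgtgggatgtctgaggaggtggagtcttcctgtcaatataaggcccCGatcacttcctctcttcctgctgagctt
Gstm5: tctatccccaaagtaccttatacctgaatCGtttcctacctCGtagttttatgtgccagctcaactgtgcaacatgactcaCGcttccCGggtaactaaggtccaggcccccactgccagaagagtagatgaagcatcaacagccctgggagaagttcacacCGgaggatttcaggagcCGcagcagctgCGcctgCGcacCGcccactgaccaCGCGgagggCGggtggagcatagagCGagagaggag
Gstm3: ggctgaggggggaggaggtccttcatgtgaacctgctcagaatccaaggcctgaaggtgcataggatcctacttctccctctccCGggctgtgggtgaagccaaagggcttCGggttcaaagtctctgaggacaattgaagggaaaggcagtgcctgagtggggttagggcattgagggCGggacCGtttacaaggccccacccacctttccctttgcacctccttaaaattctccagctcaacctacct
Ces1g: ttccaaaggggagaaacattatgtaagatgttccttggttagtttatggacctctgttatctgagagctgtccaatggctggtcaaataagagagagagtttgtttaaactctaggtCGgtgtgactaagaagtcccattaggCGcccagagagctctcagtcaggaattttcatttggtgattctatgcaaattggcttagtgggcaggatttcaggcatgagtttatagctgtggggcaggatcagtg
Ugt2b36: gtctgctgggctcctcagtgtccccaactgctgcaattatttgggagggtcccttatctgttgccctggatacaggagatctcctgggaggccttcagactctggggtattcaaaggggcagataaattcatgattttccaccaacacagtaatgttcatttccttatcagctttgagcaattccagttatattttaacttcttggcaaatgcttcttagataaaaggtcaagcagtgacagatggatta

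The CG count was 18 in Gstp1 and 4 in Gstp3, 13 in Gstm5 and 4 in Gstm3, 2 in Ces1g and 0 in Ugt2b36. The median was 2 over the 48 genes and 6 over all 27025 promoters, of which 38.2% held 10 or more and 29.6% held 2 or fewer. Among the 32 tested members with a promoter, the 6 with 10 or more CG were all glutathione S-transferases, with a median log2 difference of -0.23 and a range of -0.89 to -0.03. The 10 with 3 to 9, of which 6 were glutathione S-transferases, had a median of -0.51 and a range of -0.91 to -0.35. The 16 with 2 or fewer, of which 2 were glutathione S-transferases, had a median of -0.54 and a range of -1.37 to 0.16. The groups by count thus differ in their families as well. Over the 14 such glutathione S-transferases the Spearman correlation of CG count with log2 difference was 0.63 and Pearson's r was 0.64, while over the 18 members of the other families they were -0.01 and -0.13. These are descriptions across genes that share the same 4 arrays, the windows were examined after the differences were known, and where a gene had several starts the first listed was used.

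Letters of known binding sites were also sought in the same windows, on both strands. The letters GTTAAT, part of the HNF1 site, were in 5 of 48 members (10.4%), against 6.52% of all promoters, and the C/EBP site TTGCNNAA in 11 (22.9%), against 9.55%. The CCAAT box CCAAT was in 20 (41.7%), against 34.5%, and the TATA box TATAAA in 8 (16.7%), against 13.0%. The GC box GGGCGG was in 10 (20.8%), against 32.9%, the antioxidant response element core TGACNNNGC in 2 (4.17%), against 10.1%, and the HNF4 letters CAAAGTCCA in 0, against 0.381%. The GC box overlaps the CG counted above. These are matches of letters in a short window. The median GC content was 45.2% in the windows of members and 52% over all promoters, and its part in these shares was not tested.

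**Figure D3:**
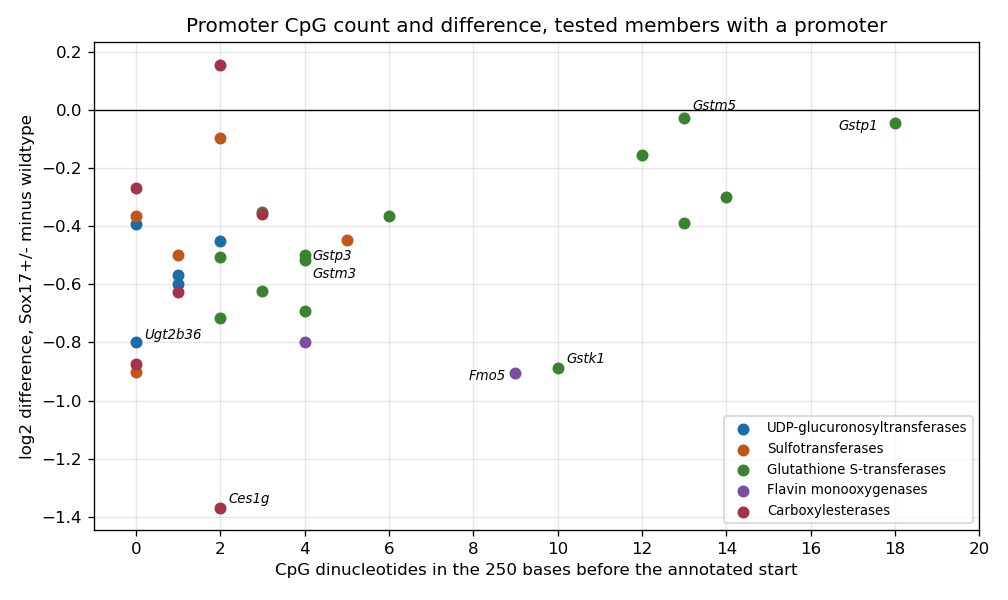
Number of CpG dinucleotides in the 250 bases before the annotated start (horizontal axis) and log2 difference, Sox17+/- minus wildtype (vertical axis), for the 32 tested members with a listed promoter, coloured by family. The glutathione S-transferases (green) with 12 or more lie between -0.39 and -0.03, while Gstk1, with 10, lies at -0.89.

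The flavin monooxygenases numbered 4, of which 3 were tested and all had lower means. Fmo5, a monooxygenase of liver that also oxidises ketones, had 293 and 302 in Sox17+/- liver against 648 and 503 in wildtype liver. Its log2 difference was -0.91 (SE 0.22, 95% interval -1.48 to -0.33, unadjusted p = 0.00954 by limma), and its other 2 probe sets gave -0.84 and -0.77. The Sox17+/- arrays were nearly equal and both wildtype arrays were well above them. Fmo4 had 112 and 57.7 against 168 and 139.6 (log2 difference -0.80, 95% interval -1.63 to 0.03), without overlap, and its difference was -0.40 without Sox17+/- array 2. Fmo1, known in human as the main form of fetal liver, overlapped, with 1537 and 898 against 1956 and 1097, and its difference of -0.31 became 0.10 without wildtype array 1.

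The carboxylesterases are given by class. Of the 4 tested Ces1 genes 3 were lower without overlap, where 18.7% of tested genes were. Of the 4 tested Ces2 genes 0 were lower and 1 was higher, where 14.5% of tested genes were higher, which is near that share. The medians over tested genes were -1.12 for Ces1 and -0.06 for Ces2, and over all genes of the class they were -0.75 for 6 Ces1 genes and 0.16 for 5 Ces2 genes, with the dim Ces2f added. The difference between the classes was noticed in the values and was not tested. Without wildtype array 1 the Ces1 median over all 6 was -0.17 and the Ces2 median 0.075.

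Ces1d, a triacylglycerol hydrolase of liver, had 1122 and 675 in Sox17+/- liver against 3716 and 1404 in wildtype liver (log2 difference -1.38, 95% interval -2.73 to -0.02, unadjusted p = 0.0476 by limma). Its other 2 probe sets gave -1.71 and -1.34. The difference was -0.68 without wildtype array 1 and -2.07 without wildtype array 2. Ces1g, which acts in hepatic lipid metabolism, had 115 and 168 against 540.1 and 273 (log2 difference -1.37, SE 0.39, unadjusted p = 0.0160 by limma). In both genes wildtype array 1 was far above wildtype array 2, and both Sox17+/- arrays were still below wildtype array 2. Without wildtype array 1 the difference of Ces1g was -0.90 and that of Ces1e, -0.56. Ces1e, known as egasyn, which holds beta-glucuronidase in the endoplasmic reticulum, had 118 and 112 against 284 and 177 (log2 difference -0.88, SE 0.28, unadjusted p = 0.0250 by limma). Gusb, the gene of that glucuronidase, overlapped, with 2187 and 2086 against 2089 and 1849.8. Ces1c, an esterase secreted into mouse plasma, overlapped, with 534 and 684 against 1716 and 514, and its sign turned without wildtype array 1, to 0.23.

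In the Ces2 class, Ces2a had 927 and 948 in Sox17+/- liver against 1416 and 905 in wildtype liver, so that 3 arrays were alike and wildtype array 1 was higher. Its log2 difference was -0.27, and 0.050 without that array. Ces2b had the largest positive difference of the tested members, 0.41 (95% interval -0.35 to 1.17), with 197 and 166 against 172 and 101, and it was 0.75 without wildtype array 1 and 0.07 without wildtype array 2. Ces2e had 131 and 139 against 112 and 127 (log2 difference 0.16), the 1 tested member on which both Sox17+/- arrays were higher. Ces2g, with a difference of -0.36, overlapped.

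**Figure D4:**
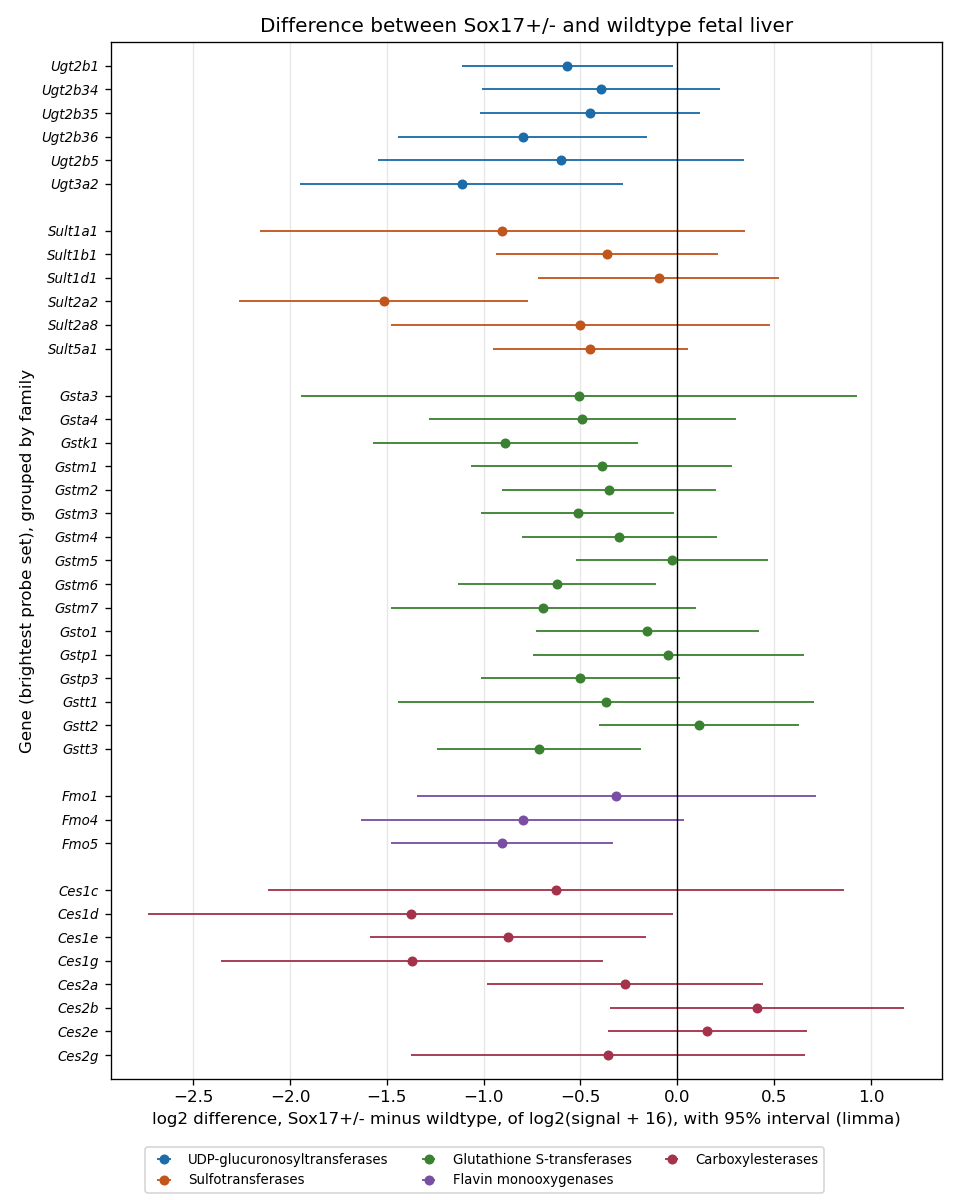
Log2 difference, Sox17+/- minus wildtype, of log2(signal + 16) with its 95% interval from limma for the 39 tested members, coloured by family. Points left of 0 are lower in Sox17+/- liver, 36 of the 39, where 6329 of 11676 tested genes were. Before adjustment 12 intervals do not reach 0, all of them lower. Over tested genes, 2.55% were lower and 1.6% higher at an unadjusted p under 0.05 by limma.

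The other 18 members were in the dimmer 50% of probe sets and were not tested. Their mean signals ran from 6.57 to 71.0, against 105 for the dimmest tested member and 89.7 at the boundary. The genotypes overlapped in 12 of them. Both Sox17+/- arrays were lower for Gsta2, Gstt4, Sult2b1 and Ugt3a1 and higher for Sult6b1 and Ugt2a3, all named after their values were seen. These counts, 4 and 2 of 18, were near the shares of all genes, of which 19.0% were lower and 13.9% higher. Sult2b1, which sulfates cholesterol and pregnenolone, had 5.52 and 14.5 against 36.7 and 57.4, and Sult1e1, the oestrogen sulfotransferase, had 7.71 and 2.16 against 6.59 and 9.82. Differences at such signals were not tested.

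Probe sets listed for several genes were not members, but 3 of them were listed for genes of the Ugt1a cluster, which encodes the bilirubin and phenol glucuronidating enzymes. These 3 probe sets, each listed for 8 genes, had log2 differences of -0.46, -0.61 and -0.79. They were lower without overlap between genotypes, where 19.0% of all genes were. As they are listed for genes of 1 cluster, they are not 3 separate observations. The brightest had 3213 and 2607 in Sox17+/- liver against 5728 and 3403 in wildtype liver. Which Ugt1a gene the signal came from cannot be told apart. In all, 6 probe sets were listed for several genes of these families. The one for Gsta1, Gsta2 and Gm3776 overlapped, with 81.4 and 94.5 against 269 and 84.2. Among dim probe sets, that for Ugt2a1 and Ugt2a2 overlapped, and that for Ces3a and Ces3b was lower without overlap. Of the 13 members with over 1 probe set, all probe sets had the same direction in 11. The exceptions were the dim Fmo2 and Gstm7, whose second probe set gave 0.33 against -0.69 on the brighter one. Because genes of these families are close in sequence, a probe set may also bind a paralog, and 4 of the 39 tested members rest on a probe set whose name ends in _s_at or _x_at, the array maker's mark for such sharing.

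By median log2 difference, the pathways that feed and control conjugation were closer to balance in 2 of 5 lists, cofactor supply and regulators. Of 13 measured genes that supply cofactors, 4 were lower without overlap (Cbs, Cth, Papss1 and Papss2) and 2 higher (Gclm and Gsr), with a median log2 difference of -0.11. Those lower made up 30.8% of the list, where 19.0% of all genes were lower and 13.9% higher. Papss2, which makes the sulfate donor of sulfotransferases, had 634 and 672 in Sox17+/- liver against 1024 and 771 in wildtype liver. Cbs, an enzyme on the way to cysteine, had 1390.3 and 1425 against 2488 and 1668, while Gclm and Gsr, of glutathione synthesis and reduction, had differences of 0.19 and 0.21. Without wildtype array 1 the difference of Papss2 was -0.23, against -0.44 with all arrays, and that of Cbs was -0.24, against -0.53. None passed the adjusted limma test.

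Of 14 measured regulators, 3 were lower without overlap (Esr1, Nr1h4 and the untested Onecut1), or 21.4% against 19.0% of all genes, and 1 was higher (Nr3c1), where 13.9% of all genes were, with a median of -0.05. The count of lower regulators was thus near that of all genes. Esr1, the oestrogen receptor, had 96.5 and 96.6 in Sox17+/- liver against 192 and 172 in wildtype liver. Nr1h4, the bile acid receptor FXR, had 236 and 189 against 529.7 and 270.4. The Esr1 difference was -0.82 on this probe set and -0.12 as the mean over all its probe sets, and that of Nr1h4 was -0.80, and -0.33 without wildtype array 1. The drug-sensing receptors Nr1i2 and Nr1i3 overlapped, with differences of 0.00 and -0.08.

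Other conjugating enzymes, with 22 of 23 measured, had 5 genes lower without overlap (Acsm3, Bpnt1, Gstz1 and the untested Hpgds and Inmt), 0 higher, and a median of -0.41. Of the 14 tested, 3 were lower. Gstz1, an enzyme of tyrosine breakdown, had 2694 and 3062 in Sox17+/- liver against 4758 and 3911 in wildtype liver, and Acsm3, an acyl-CoA synthetase, had 223 and 101 against 641 and 249. Of 20 other hydrolases and oxidoreductases 4 were lower (Aox1, Ephx2, Maob and Pon1) and 1 higher (Aldh2), with a median of -0.20. Maob, a monoamine oxidase, had 2337 and 2698 against 5044 and 4013, and Aldh2, which oxidises acetaldehyde, had 6543 and 7935 against 4619 and 4632. Of 14 transporters 8 were lower and 2 higher (Abcg2 and the untested Slco1a1), with a median of -0.30. Of the 9 tested, 5 were lower and 1 higher. Slc47a1, an exporter of organic cations, had 892 and 866 against 1961 and 1481, and Slco2b1, an uptake carrier of organic anions, had 122 and 202 against 265 and 226. Without wildtype array 1 the difference of Acsm3 was -0.66, against -1.32 with all arrays, and as the mean over all its probe sets that of Aldh2 was 0.37, against 0.64. Slco2b1 had -0.59, and -0.26 without Sox17+/- array 1. Over all genes 19.0% were lower and 13.9% higher without overlap. The shares lower were 22.7% of other conjugating enzymes and 20% of other hydrolases and oxidoreductases, both near that of all genes. Among transporters the share was 57.1%. The genes in brackets beyond those with values are named after their values were seen.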

How the data were processed

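Total RNA of fetal liver was hybridised to single-colour Affymetrix arrays from 10 µg of RNA, per the labels' protocols. The deposited values are linear signal intensities, 1 array a column, and the submitters' processing notes name MAS5; its version and scaling target were not given in the sources used here. Arrays limit precision by their number, 2 a genotype. The p-values weigh a difference only against the spread between these samples. In limma that spread is partly shared over probe sets (3.06 prior and 2 residual degrees of freedom). Of 45101 probe sets, 64 controls were left out; 34945 of the others had 1 symbol in the platform annotation, 932 several and 9160 none, and genes were named only from the first. For tests, log2(signal + 16) was fitted with genotype in limma 3.58.1 (R 4.3.3; lmFit, eBayes), for the 50% of probe sets brightest in mean signal, with Benjamini-Hochberg adjustment at 0.05. The fit was also run on simulated data with planted differences. Their noise was independent between probe sets, so they cannot show how an effect shared within an array would act. Medians and counts of arrays that do not overlap cover all 57 members.

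The members and the gene and marker lists were chosen with earlier results of these data known. Named genes were, per family, the 4 tested members with the smallest p, the 3 brightest and the largest difference in each direction, and 2 genes by p in each pathway list; any further gene was named after its values were seen. Alternatives covered the pseudocount, filter, scaling, prior, probe set rule, replicate block and leaving out each array. Promoters were from RefSeq, GRCm38.p6.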

Additional observations from a re-analysis of the deposited data

How the results depend on the processing

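The 2 arrays a genotype are the main limit, and wildtype array 1 carries weight in many members. Of the log2 differences of single named genes under the alternatives, 467 kept their direction and side of the threshold. The filter, prior and replicate block cannot change a gene's log2 difference, so part of that count was fixed beforehand. It also includes differences that shrank, such as Sult1a1 at -0.22 without wildtype replicate 1, against -0.90 with all arrays. In 10 cases the sign turned. Without wildtype replicate 1 these were Ces1c at 0.23, Ces2a at 0.050, Fmo1 at 0.10, Gstp1 at 0.17, Gstt1 at 0.16 and Sult1d1 at 0.14, without Sox17+/- replicate 2 they were Fmo1 at 0.07 and Gstp1 at 0.18, and with each array centred on its median they were Gstm5 at 0.018 and Gstp1 at 0.0010. Leaving out each array in turn gave -1.48 to 0.23 for Ces1c, -0.59 to 0.050 for Ces2a, -0.73 to 0.10 for Fmo1, -0.27 to 0.18 for Gstp1, -0.89 to 0.16 for Gstt1 and -0.33 to 0.14 for Sult1d1. The median over the 57 genes ranged from -0.58 to -0.25, that of Ugt from -0.65 to -0.31, Sult from -0.43 to -0.25, Gst from -0.58 to -0.24, Fmo from -0.82 to -0.25 and Ces from -0.33 to 0.075. The members lower on both Sox17+/- arrays numbered 30 to 40, where 35.0% to 37.8% of all genes were lower, and those higher 5 to 9, where 27.2% to 32.2% were, since fewer arrays make overlap rarer. The Ces median was -0.49 in the brighter 50% of probe sets, a setting chosen after seeing the data, and -0.49 in the brighter 25%, and the Sult median was -0.50 in the brighter 25% and -0.14 with a pseudocount of 64. Members higher on both Sox17+/- arrays numbered 1 of 39 in the brighter 50%, 0 of 23 in the brighter 25% and 5 of 57 after quantile normalization, where 14.5%, 16.1% and 15.4% of genes were, and members lower numbered 10 of 23 in the brighter 25%, where 16.3% of genes were. With arrays centred, 22 of 57 members were lower, where 13.3% of genes were. The limma count of probe sets past the adjusted threshold was 3 with arrays centred and 3 with a trended, robust prior, and 0 otherwise; 0 members passed in any setting run. At an unadjusted p under 0.05 it was 916. The cause was not tested.

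Same-numbered arrays share a code, and the deviations of their signals from the genotype means correlated at 0.38 over 22519 probe sets, which with 2 pairs does not establish a pairing. With the replicate number as a block, limma passed 0 probe sets (1673 at an unadjusted p under 0.05) and 0 members. Within the same-numbered pairs, 38 members were lower in both, where 31.0% of genes were, and 7 higher, where 23.5% were.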
